A study of Mus musculus with 12 samples.

Results

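The genes described here are the 10 mouse homeobox genes with the symbols Dlx1 to Dlx6, Emx1, Emx2, Vax1 and Vax2, out of 55536 genes in the annotation. They were listed by symbol, with earlier results of these data known, and all 10 were found. RNA-seq libraries were made from primary oligodendrocyte precursor cells (OPCs, the dividing cells that give rise to myelinating oligodendrocytes) in 4 groups of 3 replicates, 12 libraries in all. Control cells (Ctr) received neither treatment. EZH2i cells received EPZ011989, an inhibitor of the methyltransferase EZH2, at 1.5 µM for 4 days with renewal every 48 h. IFNg cells received IFN-γ at 100 ng/ml for 6 h, and IFNg_EZH2i cells received the inhibitor with IFN-γ added for the last 6 h. All groups shared the same source. It consisted of pups of both sexes at postnatal days 4 to 6 from the Sox10:Cre line crossed to an RCE:LoxP EGFP reporter, whose promoter marks the whole oligodendrocyte lineage and not OPCs alone. The methods state that cells were taken either by sorting for Sox10-GFP or with CD140a beads, that several brains were pooled, and that replicates came from separate litters. The labels name Sox10GFP+ cells for every library and carry the entry EAE under mouse model, although the protocol describes untreated pups.

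Homeobox genes encode transcription factors that bind DNA through a homeodomain, whose core site contains TAAT. Dlx genes lie in convergent pairs and direct the formation of GABAergic interneurons in the ventral forebrain, as well as branchial arch and limb structures. Emx1 and Emx2 pattern the dorsal telencephalon, the future cortex and hippocampus, and Vax1 and Vax2 specify the optic stalk and the ventral retina. Genes of this kind are classical targets of Polycomb repressive complex 2 (PRC2), in which EZH2 places the methyl groups of the H3K27me3 mark. The comparisons below ask whether these genes differed when EZH2 activity was inhibited and when the cells were exposed to IFN-γ.

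Expression was measured as estimated counts of read pairs per gene. Levels are given as CPM, counts scaled to library size with TMM factors, which compare a gene between libraries, or as TPM, which are also scaled by transcript length and compare genes. Library totals lay between 17403896 and 66546017 estimated counts, and replicate 3 was the deepest library in each group. OPC markers (Pdgfra, Cspg4, Olig1, Olig2, Sox10 and Ptprz1) summed to between 3837 and 6952 CPM in every library, so the cells matched their label. The 5 microglial markers summed to at most 1.59 CPM. Astrocyte markers were present throughout, with sums from 823 to 2093 CPM, of which Slc1a3 gave the largest share. The expression of Ezh2 was 49.4 ± 5.21 CPM in Ctr and 39.6 ± 7.66 CPM in EZH2i (mean ± SD, n = 3, as below), and neither Ezh2 nor its partners Eed and Suz12 passed the test in any comparison. The inhibitor acts on the enzyme and not on its transcript, so these levels do not check the treatment. Bulk levels cannot tell a change per cell from a change in the share of cells that express a gene.

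The members fell into physically linked pairs in the GRCm38 annotation. Dlx1 (chr2:71528113-71533981, plus strand) and Dlx2 (chr2:71543408-71546754, minus strand) were separated by 9.43 kb, Dlx6 (chr6:6863334-6868568, plus strand) and Dlx5 (chr6:6877805-6882085, minus strand) by 9.24 kb, and Dlx3 (chr11:95120119-95125296, plus strand) and Dlx4 (chr11:95140447-95146263, minus strand) by 15.15 kb. Vax2 (chr6:83711264-83738313, plus strand) and Emx1 (chr6:85187438-85204462, plus strand) lay 1449.12 kb apart, and Vax1 (chr19:59166187-59170056, minus strand) and Emx2 (chr19:59458372-59465357, plus strand) 288.31 kb apart. Dlx1, Dlx4, Dlx6, Emx2 and Vax2 each overlapped an RNA on the other strand.

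Upstream sequences of 2 of these opposite-strand RNAs and of 1 member are shown, because the 2 RNAs accompanied the members that differed most with EZH2i whereas Dlx2 did not. Each is the 250 bases before a RefSeq start site (GRCm38.p6), read 5′ to 3′ on the minus strand, and holds no exon of a coding gene. CG dinucleotides and TAATTA, a palindromic homeodomain core, are in capitals.
Vax2os, chr6:83712202-83712451, before the annotated 5′ end of Vax2os and in an intron of Vax2: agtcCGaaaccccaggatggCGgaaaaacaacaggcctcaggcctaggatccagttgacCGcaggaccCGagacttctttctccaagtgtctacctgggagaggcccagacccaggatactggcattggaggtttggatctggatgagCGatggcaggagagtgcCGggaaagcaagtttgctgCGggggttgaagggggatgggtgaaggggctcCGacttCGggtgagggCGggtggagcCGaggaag
Dlx6os1, chr6:6869534-6869783, 966 bases past the annotated end of Dlx6, between it and Dlx5, and overlapping an exon of Dlx6os1 itself: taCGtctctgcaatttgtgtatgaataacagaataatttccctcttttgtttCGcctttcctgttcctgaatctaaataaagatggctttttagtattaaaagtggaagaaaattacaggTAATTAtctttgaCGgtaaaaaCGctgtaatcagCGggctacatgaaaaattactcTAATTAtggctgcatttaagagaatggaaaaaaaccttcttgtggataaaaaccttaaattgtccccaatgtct
Dlx2, chr2:71546755-71547004: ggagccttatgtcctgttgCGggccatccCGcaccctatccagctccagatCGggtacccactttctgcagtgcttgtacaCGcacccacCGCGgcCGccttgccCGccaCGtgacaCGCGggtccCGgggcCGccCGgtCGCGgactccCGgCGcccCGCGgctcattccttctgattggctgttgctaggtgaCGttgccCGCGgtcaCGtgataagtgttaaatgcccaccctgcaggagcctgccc
The Dlx2 stretch held 24 CG dinucleotides and no TAATTA, the Vax2os stretch 11 CG and no TAATTA, and the Dlx6os1 stretch 5 CG with 2 copies of TAATTA. A second RefSeq start site of Vax2os, not shown, lies before Vax2, and the 250 bases before it hold 8 CG and exons of Vax2os itself and of Gm27893.

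In the whole 300-base windows, which add 50 bases after the start site, Emx1 held 37 CG dinucleotides, Dlx2 29, Dlx1 27, Emx2 26 and Vax1 17. Of the 32851 mouse promoters of this length in the RefSeq table (median 7), 94.4% had fewer than Emx1, 87.1% fewer than Dlx2, 84.5% fewer than Dlx1, 83.1% fewer than Emx2 and 68.6% fewer than Vax1. These are the 5 of 10 members for which a window was matched. Of these, Dlx1, Dlx2, Emx1 and Emx2 were tested and did not pass in an EZH2i comparison of the full edgeR fit, while Vax1 had too few counts to be tested. Vax2, Dlx6 and Dlx4, which passed in the averaged EZH2i test, had no matched window, so CG content cannot be set against the calls. Both Dlx6os1 windows were poor in CG, with 5 and 3, and both contained TAATTA, which 5.29% of all promoters hold. Of the 5 members, Emx2 alone had it in its window. The motif TTCNNNGAA, the core of the gamma-activated site (8.30% of all promoters, both strands), was found in none of these 5 windows.

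The levels of the members differed widely, as compared per length with TPM. In Ctr, Emx2 was the highest at 3.74 ± 0.850 TPM, and its lowest library (2.97 TPM) was above every other member. Dlx2 (0.469 ± 0.0674 TPM) and Dlx1 (0.442 ± 0.0955 TPM) followed and overlapped each other. Dlx6, Emx1, Vax2, Dlx5, Vax1 and Dlx4 had means from 0.140 down to 0.0134 TPM, and each overlapped the next. Dlx3 had no count in Ctr. The order was different with EZH2i, where Vax2 headed it at 5.43 ± 4.56 TPM and overlapped Emx2 at 3.01 ± 1.06 TPM, which overlapped Dlx6 at 1.71 ± 0.935 TPM. In IFNg, Emx2 was first at 5.55 ± 0.265 TPM, ahead of Dlx1 and Dlx2 at 0.928 ± 0.381 and 0.802 ± 0.231 TPM. In IFNg_EZH2i, Vax2 (4.45 ± 3.51 TPM) and Emx2 (4.00 ± 2.45 TPM) overlapped.

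**Figure D1:**
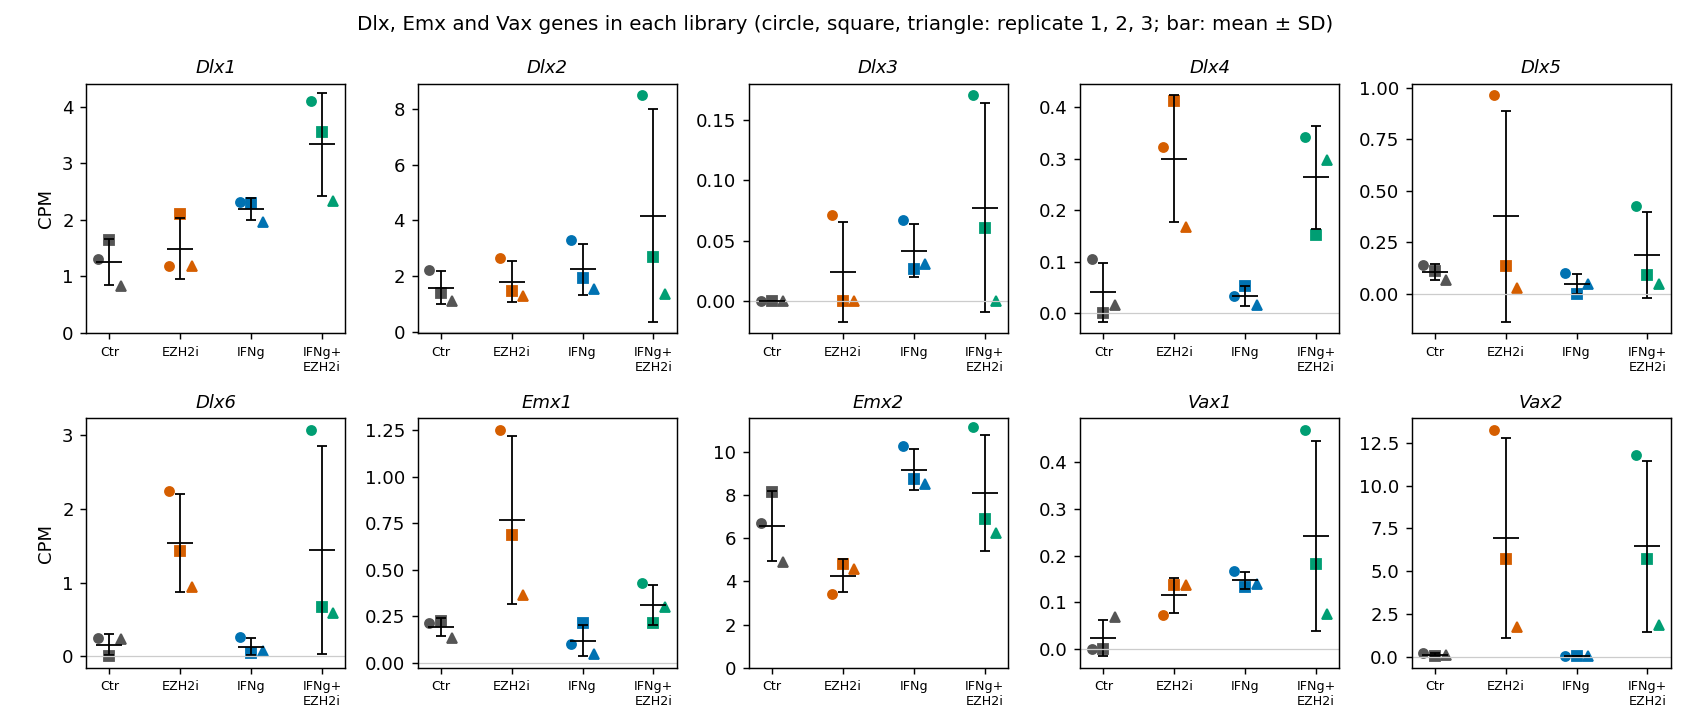
TMM-normalized CPM (y axis, linear, each panel on its own scale) of the 10 genes in each of the 12 libraries by group (x axis). Circles, squares and triangles are replicates 1, 2 and 3, and bars give the mean and SD of 3 replicates; Vax2 lay between 1.78 and 13.3 CPM in the EZH2i libraries and between 0.0565 and 0.213 CPM in Ctr.

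Vax2 was the member with the largest difference. Its levels in Ctr were 0.213, 0.0565 and 0.136 CPM in replicates 1, 2 and 3 (6, 1 and 8 counts). In EZH2i they were 13.3, 5.73 and 1.78 CPM (371, 209 and 117 counts). Every EZH2i library was above every Ctr library, and the fold between the means was 51.3. The log2 fold change was 5.56 with a standard error of 0.91 (adjusted p = 0.0244). Here and below, adjusted p values are from the quasi-likelihood test of edgeR over 18995 genes with the Benjamini-Hochberg method, unless another fit is named. In this comparison 0.405% of the genes tested passed the threshold of 0.05, and Vax2 was the only one of the 10 members to do so. The call was lost when Ctr replicate 1, 2 or 3, EZH2i replicate 1 or 2, or IFNg_EZH2i replicate 2 was left out, with adjusted p values from 0.0503 to 0.158, while the log2 fold change of Vax2 stayed at or above 4.68.

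Vax2 was higher with the inhibitor under IFN-γ as well. Its levels were 0.0335, 0.0533 and 0.0771 CPM in IFNg (1, 2 and 5 counts) and 11.8, 5.71 and 1.86 CPM in IFNg_EZH2i (276, 188 and 75 counts). The groups did not overlap, and the means differed 118-fold (log2 fold change 6.69, standard error 0.98, adjusted p = 0.0182). Of all genes tested 0.353% passed in this comparison, and again Vax2 was the only member. The call was lost without IFNg replicate 1, 2 or 3 (adjusted p = 0.101 to 0.121). The difference between the EZH2i effects with and without IFN-γ was 1.12 on the log2 scale for Vax2, with a standard error of 1.36, and did not pass. For the average of both EZH2i comparisons, Vax2 had 6.13 on the log2 scale (standard error 0.67) with an adjusted p of 0.000759, and it passed in all 12 fits that left out a library. The fit counts all libraries as independent, but same-numbered EZH2i and IFNg_EZH2i libraries deviated alike from their group means (correlations of 0.605, 0.633 and 0.686). The averaged calls here and below therefore rest on fewer independent cultures than libraries. Leaving out 1 library also keeps its same-numbered partner in the fit.

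The Vax2 levels of same-numbered libraries were close to each other although the replicates differed. IFNg_EZH2i over EZH2i gave ratios of 0.889, 0.998 and 1.05 in replicates 1, 2 and 3, whereas replicates 1 and 3 of EZH2i were at 13.3 and 1.78 CPM. Its test of IFNg_EZH2i against EZH2i gave -0.10 on the log2 scale (standard error 0.67) and did not pass (adjusted p = 0.977). Vax1 did not pass the filter on low counts. It had 0, 0 and 4 counts in Ctr, 2, 5 and 9 in EZH2i, 5, 5 and 9 in IFNg, and 11, 6 and 3 in IFNg_EZH2i, so at most 0.470 CPM. At these few counts, EZH2i and IFNg were each above Ctr without overlap (5.09-fold and 6.48-fold). Neither difference passed in the edgeR fit without a filter (adjusted p = 0.935 and 0.394).

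Among the Dlx genes, Dlx6 and Dlx4 were higher with EZH2i in the averaged test, and their linked partners could not be tested. Dlx6, which acts in ventral forebrain neurons and branchial arches, measured 0.248, 0 and 0.237 CPM in the Ctr libraries and 2.25, 1.42 and 0.941 CPM in those with EZH2i. In IFNg it was at 0.268, 0.0533 and 0.0771 CPM and in IFNg_EZH2i at 3.08, 0.669 and 0.596 CPM. Neither pair of groups overlapped, and the means differed 9.51-fold and 10.9-fold. The single comparisons missed the threshold (log2 fold change 3.03, standard error 0.84, adjusted p = 0.224, and 3.50, standard error 0.87, adjusted p = 0.180). The second one passed with the replicate number added to the fit as a block (adjusted p = 0.00683). Dlx6 rose in the average of both comparisons by 3.27 on the log2 scale (standard error 0.61, adjusted p = 0.0158). It did so in all 12 fits that left out a library, though only just without IFNg replicate 2 (adjusted p = 0.0498).

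Dlx4 was rarer, with 3, 0 and 1 counts in Ctr and 1, 2 and 1 in IFNg, at the detection floor of 3 counts per library. It had 9, 15 and 11 counts in EZH2i (0.322, 0.411 and 0.167 CPM) and 8, 5 and 12 in IFNg_EZH2i (0.342, 0.152 and 0.298 CPM). This was at least 2.75-fold higher without IFN-γ and at least 3.49-fold higher with it (adjusted p = 0.242 and 0.243). In the average of both EZH2i comparisons Dlx4 rose (adjusted p = 0.0218). That call was lost without Ctr replicate 2 or 3, EZH2i replicate 1 or 2, IFNg replicate 1 or 3, or IFNg_EZH2i replicate 3, with adjusted p values from 0.0506 to 0.0703. In this averaged test 2.22% of all genes tested passed in either direction and 2.03% of all genes tested passed upward, beside the 3 members Vax2, Dlx6 and Dlx4. Vax2, Dlx6, Dlx4 and Emx1 reached the count filter through EZH2i libraries alone, so the number of tested members that were higher is not support for a shift of the family.

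The partners of Dlx4 and Dlx6 had few reads and did not pass the filter. Dlx5 had 4, 2 and 4 counts in Ctr, 27, 5 and 2 in EZH2i, 3, 0 and 3 in IFNg, and 10, 3 and 2 in IFNg_EZH2i. EZH2i replicate 1 (0.965 CPM) stood above the other 11 libraries, which reached at most 0.427 CPM. Dlx3 had 0 counts in all Ctr libraries, 2, 0 and 0 in EZH2i, 2, 1 and 2 in IFNg, and 4, 2 and 0 in IFNg_EZH2i, which leaves no difference that could be resolved.

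Dlx1 and Dlx2, the interneuron genes of the first pair, were expressed in every library and showed no resolvable difference between EZH2i and Ctr. Dlx1 measured 1.31, 1.64 and 0.831 CPM in the Ctr libraries and 1.18, 2.11 and 1.18 CPM in those with EZH2i, with overlap between the groups (log2 fold change 0.27, standard error 0.34, adjusted p = 0.974). Dlx2 measured 2.23, 1.41 and 1.12 CPM in the Ctr libraries and 2.65, 1.45 and 1.29 CPM in those with EZH2i, also with overlap (log2 fold change 0.17, standard error 0.60, adjusted p = 0.991). In IFNg_EZH2i, Dlx1 was at 4.10, 3.56 and 2.34 CPM, above all IFNg libraries at 2.31, 2.29 and 1.96 CPM, without passing the test (log2 fold change 0.60, standard error 0.33, adjusted p = 0.868).

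Of the Emx genes, Emx1 was higher with EZH2i but missed the threshold, and Emx2 was lower without passing it. Emx1 measured 0.213, 0.226 and 0.136 CPM in the Ctr libraries and 1.25, 0.685 and 0.364 CPM in those with EZH2i, a 4.01-fold difference between groups that did not overlap (log2 fold change 2.02, standard error 0.61, adjusted p = 0.280). With IFN-γ, it was at 0.101, 0.213 and 0.0463 CPM without the inhibitor and at 0.427, 0.213 and 0.298 CPM with it (adjusted p = 0.774). The averaged test gave 1.71 on the log2 scale for Emx1 (standard error 0.44, adjusted p = 0.0782), which crossed the threshold when EZH2i replicate 3 was left out (adjusted p = 0.0491). Emx2 measured 6.70, 8.13 and 4.90 CPM in the Ctr libraries and 3.40, 4.82 and 4.58 CPM in those with EZH2i. The groups did not overlap, but their gap was small next to the spread within Ctr (log2 fold change -0.61, standard error 0.26, adjusted p = 0.661).

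The 7 tested members were also read by overlap. Between EZH2i and Ctr, the libraries of Vax2, Dlx6, Dlx4 and Emx1 did not overlap in the upward direction, as for 7.37% of all genes tested. Those of Emx2 did not in the downward direction, as for 5.34%. Between IFNg_EZH2i and IFNg, Vax2, Dlx6, Dlx4 and Dlx1 were higher without overlap, as 6.08% of all genes were. Since Vax2, Dlx6, Dlx4 and Emx1 were tested only because of their EZH2i libraries, these numbers are no support for a shift of the family.

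**Figure D2:**
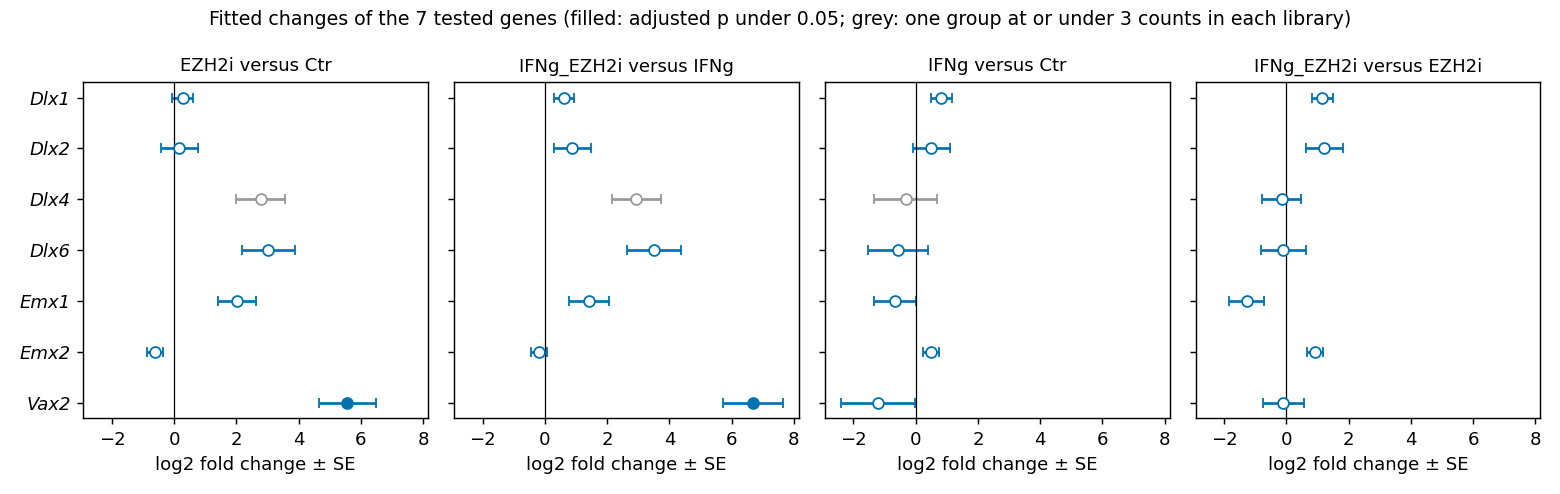
Fitted log2 fold change with its standard error (x axis) of the 7 members that passed the filter (y axis) in 4 comparisons, from edgeR. Filled points passed an adjusted p of 0.05, which only Vax2 did, in both EZH2i panels; grey points are Dlx4 where a group was at the floor.

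Markers of other cells also moved with EZH2i. The 4 endothelial markers summed to 13.8 to 20.9 CPM in Ctr and to 25.0 to 39.8 CPM in EZH2i, which was mostly Flt1, while the mesenchymal and pericyte list summed to 1.10 to 2.14 and 2.37 to 3.61 CPM. The neuronal list without Tubb3 was at 34.1 to 38.3 CPM in Ctr and 42.9 to 64.9 CPM in EZH2i, and in the averaged test 3 of its 6 genes rose (Snap25, Stmn2 and Syt1). Oligodendrocyte markers were lower, at 1470 to 1838 CPM in Ctr and 808 to 1287 CPM in EZH2i, and Mbp fell in the averaged test. The OPC list was also lower without overlap, at 6108 to 6952 CPM in Ctr and 5582 to 5709 CPM in EZH2i, and none of its 6 genes passed in the averaged test (4 did with the replicate block). The astrocyte list overlapped, at 870 to 1605 CPM in Ctr and 1082 to 1916 CPM in EZH2i, and 3 of its 5 genes were higher. None of the 5 passed in the averaged test (3 did with the block). Of these, Gfap was at 78.8, 70.4 and 209 CPM in Ctr and 167, 206 and 412 CPM in EZH2i, with overlap (adjusted p = 0.285 in the averaged test, and 9.70e-06 with the block). The block matches libraries by replicate number. Same-numbered Ctr and EZH2i libraries deviated alike from their group means in replicates 1 and 3 (correlations of 0.583 and 0.608) but hardly in replicate 2 (0.0929). The part of these differences in the results for Vax2, Dlx6 and Dlx4 was not tested. The levels of Vax2, Dlx6 and Emx1 in EZH2i were highest in replicate 1 and lowest in replicate 3, the deepest library of the group, and the part of depth was not tested.

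Vax2os and Dlx6os1, the opposite-strand RNAs of Vax2 and Dlx6, rose with EZH2i as well. Without EZH2i, Vax2os reached the cutoff of the count filter in no library and Dlx6os1 only in Ctr replicate 2 (0.339 CPM). Both were thus tested because of their EZH2i libraries, and their rise is no separate support for that of Vax2 and Dlx6. Vax2os, which starts inside Vax2 and runs away from it (938 bases of overlap between the spans and 0 exonic bases in common), had 0, 0 and 1 counts in Ctr and 41, 59 and 30 in EZH2i. It had 1, 0 and 0 counts in IFNg and 29, 37 and 15 in IFNg_EZH2i. Thus, it was at least 10.8-fold higher without IFN-γ (adjusted p = 0.0204) and at least 12.1-fold higher with it (adjusted p = 0.0249), and in the averaged test the adjusted p was 0.000779. The first call was lost without Ctr replicate 1, 2 or 3 or EZH2i replicate 1 or 2, and the second without Ctr replicate 3, any IFNg replicate, or IFNg_EZH2i replicate 1 or 2 (adjusted p at most 0.153 and 0.141). The averaged call for Vax2os held in all 12 fits.

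Dlx6os1, a long non-coding RNA that spans Dlx6 on the other strand with 0 exonic bases in common, had 0, 6 and 2 counts in Ctr, 34, 34 and 56 in EZH2i, 0, 0 and 0 in IFNg, and 17, 13 and 4 in IFNg_EZH2i. It rose in the averaged test (adjusted p = 0.0234), a call lost without Ctr replicate 3, EZH2i replicate 1 or 2, IFNg replicate 3 or IFNg_EZH2i replicate 2 (adjusted p at most 0.0601). The single differences were 8.04-fold (adjusted p = 0.297) and at least 5.39-fold (adjusted p = 0.183), and the second passed with the replicate block (adjusted p = 0.0410). The kit keeps strand, but the strand setting of the counting is not given in the sources used here. Because neither Vax2 and Vax2os nor Dlx6 and Dlx6os1 share exons, their reads can be told apart by position except for unspliced RNA. Dlx1as, Dlx4os and Dlx6os2 had at most 2 counts in any library.

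**Figure D3:**
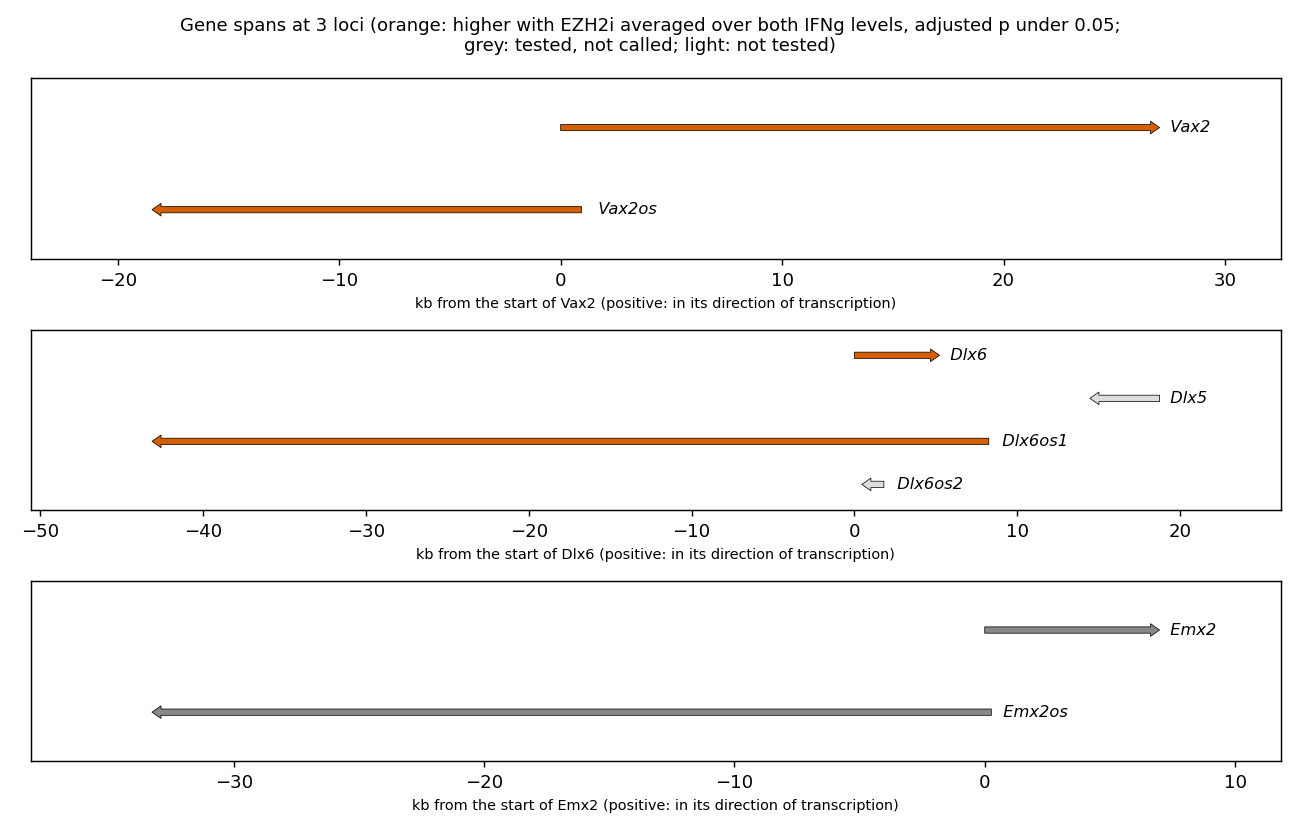
Spans of Vax2, Dlx6 with Dlx5, and Emx2 with the RNAs on the other strand, as distance in kb from the start of the named gene (x axis), with arrows in the direction of transcription. Orange spans (Vax2, Vax2os, Dlx6 and Dlx6os1) were higher in the averaged EZH2i test; Emx2 and Emx2os were tested and not called, and Dlx5 and Dlx6os2 did not pass the filter.

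The nearest coding genes outside the family mostly did not follow. Shtn1, which encodes the axonal protein shootin and is the neighbour of Vax1 at 90.1 kb, had means of 2.46 ± 0.670 CPM in Ctr and 5.70 ± 1.32 CPM in EZH2i, and it rose in the averaged test (log2 fold change 1.09, standard error 0.18, adjusted p = 0.00702). It was also lower in IFNg_EZH2i than in EZH2i (log2 fold change -0.97, standard error 0.24, adjusted p = 0.0289), a call that did not hold in 5 of 12 fits without a library. Itga3, next to Dlx3, did not pass in the averaged test (log2 fold change 0.99, adjusted p = 0.382), but with the replicate block it did between IFNg_EZH2i and IFNg (adjusted p = 0.00568) and between IFNg and Ctr (adjusted p = 0.00709). With the block Shtn1 passed in the same comparisons (adjusted p = 0.0241 and 0.0371). Metap1d, Itga6, Tac4, Sdhaf3, Sem1, Spr, Sfxn5, Pdzd8 and Rab11fip2 did not pass in either EZH2i comparison or in their average. With the replicate block Sfxn5, next to Emx1, passed between IFNg_EZH2i and IFNg (adjusted p = 0.0195). Kcnk18, Cd207, Gm25054 and Atp6v1b1, the next gene after Vax2 at 4.68 kb, were below the filter.

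With IFN-γ, no member passed the threshold, in a comparison where 8.75% of all genes did without EZH2i and 8.07% with it. The members with the lowest adjusted p were Dlx1 and Emx2 in both comparisons. Dlx1 was at 1.31, 1.64 and 0.831 CPM in Ctr and at 2.31, 2.29 and 1.96 CPM in IFNg, without overlap and with means 1.74-fold apart (log2 fold change 0.82, standard error 0.34, adjusted p = 0.202, and 0.0235 with the replicate block). Between EZH2i and IFNg_EZH2i, Dlx1 differed 2.23-fold, again without overlap (log2 fold change 1.16, standard error 0.33, adjusted p = 0.0556, and 0.00376 with the block). It passed without Ctr replicate 3, EZH2i replicate 2 or IFNg_EZH2i replicate 3 (adjusted p = 0.0307 to 0.0445).

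Emx2 was at 10.3, 8.74 and 8.52 CPM in IFNg, above all Ctr libraries (1.39-fold, adjusted p = 0.356), and at 11.2, 6.87 and 6.24 CPM in IFNg_EZH2i, above all EZH2i libraries (1.89-fold, log2 fold change 0.91, standard error 0.26, adjusted p = 0.0545, and 0.0167 with the block). The latter passed without Ctr replicate 3 or IFNg_EZH2i replicate 3 (adjusted p = 0.0460 and 0.0477). Dlx2 was at 3.28, 1.94 and 1.53 CPM in IFNg and at 8.50, 2.67 and 1.34 CPM in IFNg_EZH2i. Replicate 1 stood far above the rest in the latter, and both comparisons overlapped (adjusted p = 0.745 and 0.327, the second 0.0363 with the block). Emx1 was lower with IFN-γ in each same-numbered pair without passing the test. Its ratios in replicates 1, 2 and 3 were 0.342, 0.311 and 0.818 between IFNg_EZH2i and EZH2i (log2 fold change -1.27, standard error 0.57, adjusted p = 0.264) and 0.473, 0.943 and 0.341 between IFNg and Ctr (log2 fold change -0.67, standard error 0.68, adjusted p = 0.694), and the groups overlapped in both. Vax2, at 1 to 8 counts per library in Ctr and IFNg, gave -1.22 on the log2 scale between them (standard error 1.20, adjusted p = 0.677). Of the 7 tested members, 2 were higher with IFN-γ without overlap in each comparison, Dlx1 and Emx2, where 13.5% and 11.8% of all genes were.

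Emx2os, a non-coding RNA divergent from Emx2 whose exons cover 264 of the exonic bases of Emx2 (8.79%), did rise with IFN-γ. It was at 1.81, 2.03 and 1.93 CPM in Ctr, 1.72, 1.12 and 1.67 CPM in EZH2i, 4.02, 2.61 and 4.61 CPM in IFNg, and 3.21, 3.31 and 3.98 CPM in IFNg_EZH2i. The groups with and without IFN-γ did not overlap. The means differed 1.95-fold without EZH2i (log2 fold change 0.96, standard error 0.26, adjusted p = 0.0392) and 2.33-fold with it (log2 fold change 1.22, standard error 0.26, adjusted p = 0.0114). The first call held in 3 of 12 fits without a library, being lost without any Ctr or IFNg_EZH2i replicate, EZH2i replicate 3, or IFNg replicate 1 or 3 (adjusted p at most 0.143), and the second was lost without EZH2i replicate 2 or IFNg_EZH2i replicate 3 (adjusted p at most 0.0602). Reads in the shared exons of Emx2 and Emx2os may be split between them.

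**Figure D4:**
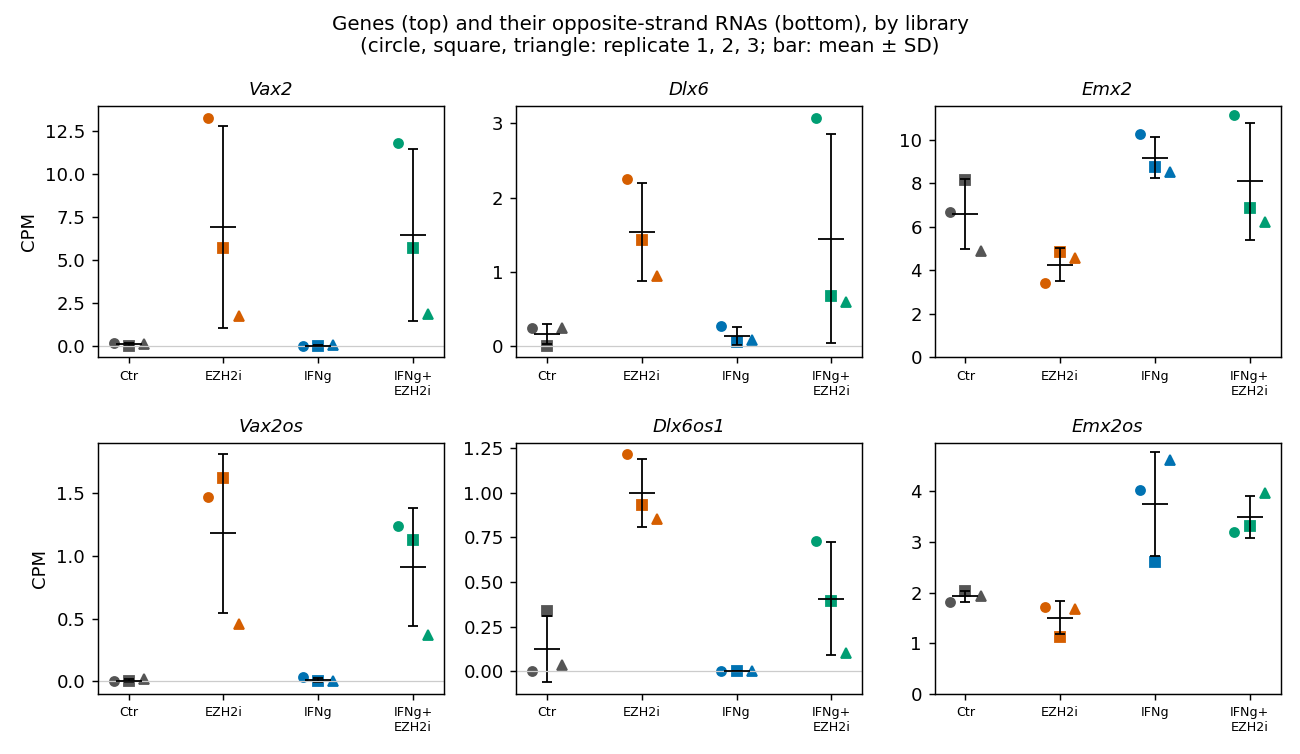
TMM-normalized CPM (y axis, linear, each panel on its own scale) of Vax2, Dlx6 and Emx2 and of the RNAs on the other strand, in each library by group (x axis), with the mean and SD of 3 replicates. Vax2os and Dlx6os1 are high in the EZH2i groups, as Vax2 and Dlx6 are, and Emx2os lies at 2.61 CPM or above in all IFN-γ libraries and at 2.03 CPM or below in the others.

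Markers moved with IFN-γ too. Pdgfra and Cspg4 fell in both comparisons, and the OPC list summed to 6108 to 6952 CPM in Ctr and 4214 to 5708 CPM in IFNg. The neuronal list summed to 54.8 to 71.8 CPM in Ctr and 706 to 1313 CPM in IFNg, and without Tubb3, which gave most of the sum, to 34.1 to 38.3 and 36.8 to 57.0 CPM. Of its 6 genes, 3 rose in both IFN-γ comparisons, the tubulin gene Tubb3 (26.7 ± 6.47 CPM in Ctr and 916 ± 304 CPM in IFNg), the synaptic vesicle gene Syt1 (1.51 ± 0.264 and 6.25 ± 1.66 CPM) and Stmn2, which encodes a stathmin of growing axons (0.106 ± 0.0674 and 0.855 ± 0.104 CPM). Snap25, Dcx and Rbfox3 did not pass. Their part in the values of Dlx1, Dlx2, Emx1, Emx2 and Emx2os was not tested. The interaction of both treatments was not called for any member or any other gene (0 genes by edgeR, 127 at an unadjusted p under 0.05, and 0 by DESeq2).

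Genes that work with the Dlx, Emx and Vax factors were read in the averaged EZH2i test. Of 14 genes of the ventral forebrain and of GABAergic neurons, 10 were tested and 2 rose, Lhx6, the interneuron LIM factor (log2 fold change 3.44, standard error 0.64, adjusted p = 0.0159), and Slc32a1, the vesicular GABA transporter (2.39, standard error 0.54, adjusted p = 0.0425). Gad1 and Gad2, which make GABA and are targets of Dlx factors, had log2 fold changes of 0.17 and 1.12 and did not pass (adjusted p = 0.920 and 0.188). Of 13 dorsal forebrain genes 10 were tested and 4 rose, namely Neurod1 (3.50, adjusted p = 0.00274) and Neurog2 (2.04, adjusted p = 0.0211), proneural factors, and Bhlhe22 (2.57, adjusted p = 0.00374) and Lhx5 (3.39, adjusted p = 0.0170). Neurod1 also passed between IFNg_EZH2i and IFNg (12.7-fold, adjusted p = 0.0444).

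Of 8 genes of the optic vesicle, among which Vax2 acts, 3 were tested and Hmx1, a homeobox gene of the eye and ear, rose. Its level was 0.0651 ± 0.00762 CPM without treatment and 1.66 ± 0.720 CPM with EZH2i (25.4-fold, adjusted p = 0.00978) and was at least 21.3-fold higher with EZH2i under IFN-γ (adjusted p = 0.00654). Of 10 skeletal and ectodermal partners, which share branchial arch and limb territories with Dlx genes, 6 were tested and 4 rose. They were the homeobox genes Msx1 (log2 fold change 1.25, adjusted p = 0.0368) and Msx2 (1.78, adjusted p = 0.0443) and the AP-2 genes Tfap2a (4.98, adjusted p = 0.00315) and Tfap2b (7.52 as fitted, adjusted p = 0.00180). Tfap2b was at the floor without EZH2i and at least 9.96-fold and 47.3-fold higher in the single comparisons. Its level in IFNg_EZH2i was 3.58 ± 2.33 CPM. No gene of these lists fell. For comparison, 6 of the 8 tested LIM homeobox genes rose in this test. As for the members, some of the tested genes reached the cutoff of the count filter in no library without EZH2i, namely 1 of the 10 ventral, 2 of the 10 dorsal, 1 of the 3 optic vesicle, 2 of the 6 skeletal and ectodermal and 4 of the 8 LIM homeobox genes. A further 2 ventral, 1 dorsal and 3 LIM homeobox genes reached the cutoff in only 1 or 2 libraries without EZH2i. The first genes had to be higher to be tested, and the further ones also needed EZH2i libraries. The counts are therefore no support for a shift of these lists. These numbers stand beside 2.22% over all genes, and a difference between the lists was not tested. Leaving out a library removed the calls of Slc32a1, Msx1 and Msx2 in 9, 9 and 11 of 12 fits.

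The genes whose profile across the 12 libraries was most like that of the highest member of each family were found by the root mean square difference of centred log2(CPM + 0.1) among 16445 genes. For Vax2 these included Tlx1 (0.44) and Hoxa7 (0.49), both homeobox genes, against a profile SD of 2.66 for Vax2 itself. For Emx2 they included Zfhx2os (0.22) and Efnb2 (0.24), against an SD of 0.51, and for Dlx2 they were Gm42418, Bcl2l1 and Ifitm10 (0.31 to 0.33, SD 0.78).

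The transcripts behind these counts differed between members. All Vax2 reads were on its 1 annotated transcript, Vax2-201. Of the Dlx2 reads, 97.6% over all libraries were on the coding transcript Dlx2-201, and 75.9% of the Emx2 reads were on Emx2-201. Dlx1 reads, in contrast, went to the retained-intron transcript Dlx1-203 (46.1%) more than to the coding Dlx1-201 (38.7%), and this held in each Ctr library (50.6% against 30.2% in all). The order was the opposite in EZH2i replicates 1 and 3, IFNg replicate 2 and IFNg_EZH2i replicate 1. Dlx6 reads were split by Salmon over 3 coding transcripts at 25.6%, 45.6% and 27.7%. The 27 Dlx5 counts of EZH2i replicate 1 included 19.6 on Dlx5-201, a transcript that had none in the Ctr, IFNg and IFNg_EZH2i libraries.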

How the data were processed

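Total RNA of 12 cultures was sequenced with a stranded kit in 4 groups of 3 replicates. The authors quantified the reads with Salmon 0.8.2 (STAR and DESeq2 are also named in the submitters' processing notes) and deposited 2 values per transcript, its estimated count and its TPM, which is scaled for effective length and library. Whether the quantification used strand is not given in the sources used here. The authors' 2 tables of DESeq2 comparisons hold fold changes and p-values and were not used. Estimated counts were summed per gene with GENCODE vM21 (GRCm38), which held every transcript, and rounded. Depth (ratio of the largest to the smallest total 3.82) limits genes with few counts, and floors cover counting error only.

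In R 4.3.3, edgeR 4.0.16 (TMM, default count filter, quasi-likelihood test, group as the only term, 1 fit of all 12 libraries) gave 18995 tested genes. Adjusted p is Benjamini-Hochberg over these, with a threshold of 0.05. Standard errors were derived from each log2 fold change and the F statistic of its test, so they include the spread between replicates. The average of both EZH2i comparisons and the interaction are contrasts of the same fit, and comparisons that share a group are not independent. A group with at most 3 counts in each library was taken to be at the floor, and folds against it use 3 counts per library as CPM, averaged over the group. The fits were tested on simulated data. Alternatives were DESeq2 1.42.0, RLE factors, other count filters, length-scaled TPM, TPM levels, only the libraries of a comparison, a replicate block, and each library left out in turn.

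Members and gene lists were chosen with earlier results of these data known. Genes named are the members, overlapping and neighbouring genes, Ezh2, Eed and Suz12, the listed partners that passed in an EZH2i comparison, and the 3 genes most alike in profile (mean of at least 0.5 CPM), of which some are not reported here. Gad1, Gad2 and the marker genes named were added to this rule. Deviations from group means (log2(CPM + 0.5)) of same-numbered libraries correlated at 0.741, 0.638 and 0.748 between IFNg and IFNg_EZH2i. The correlations were 0.605, 0.633 and 0.686 between EZH2i and IFNg_EZH2i, and 0.627, 0.105 and 0.652 between Ctr and IFNg. The replicate numbers were read as pairs there (the last only just). Between Ctr and EZH2i the correlations were 0.583, 0.0929 and 0.608. Because of replicate 2, the numbers were not read as pairs in that comparison, also only just. Where p-values rest on litters, 3 per group limit them. No 2 replicates agreed within sampling noise (chi-square per gene at least 31.3). Promoter sequences are from RefSeq. Protein sequences were not analysed here.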

Additional observations from a re-analysis of the deposited data

How the results depend on the processing

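Depth and 3 replicates limit genes of few counts, such as Dlx3, Dlx5 and Vax1, for which no difference could be resolved. With each of the 12 libraries left out in turn, the number of members called was 0 to 1 between EZH2i and Ctr (1 in the full fit), 0 to 1 between IFNg_EZH2i and IFNg (1), 2 to 4 in the average of both (3), 0 to 0 between IFNg and Ctr (0), 0 to 2 between IFNg_EZH2i and EZH2i (0) and 0 to 0 for the interaction (0). In the same order, DESeq2 called 2, 2, 4, 0, 2 and 0 members and the fit with the replicate number as a block 2, 2, 4, 1, 3 and 0. Between Ctr and EZH2i, whose same-numbered libraries were hardly alike in replicate 2, the block added Dlx6 (adjusted p = 0.00969, and 0.0151 by DESeq2). In the averaged test the block added Emx1 (adjusted p = 0.0129, and 0.0198 by DESeq2). In the EZH2i comparison under IFN-γ the block and DESeq2 added Dlx6, and in the IFN-γ comparisons the block added Dlx1 in both, and Dlx2 and Emx2 with EZH2i, where DESeq2 added Dlx1 and Emx2. A fit of only the 6 libraries of a comparison called 0 members in each of the 4 comparisons, and a filter on a mean of at least 10 counts dropped Dlx4. RLE factors, no filter and length-scaled TPM gave the same numbers of called members as the full fit. The averaged calls of Vax2 and Dlx6 held under every alternative run. Over all genes, the calls in the first 3 comparisons (77, 67 and 422) were 331, 281 and 876 by DESeq2, 771, 748 and 2317 with the block, 49, 31 and 280 from length-scaled TPM, and 121, 90 and 436 without a filter, and the first 2 were 33 and 7 from the libraries of the comparison alone. The block gave 4032 and 3661 against 1663 and 1533 in the IFN-γ comparisons. Log2 fold changes changed sign only in fits without a library and only where no call was made. They ranged from -0.062 to 0.48 (Dlx1) and -0.21 to 0.51 (Dlx2) between EZH2i and Ctr, from -0.17 to 1.32 (Dlx2) between IFNg_EZH2i and IFNg, from -0.92 to 1.12 (Dlx4) between IFNg and Ctr, and from -0.49 to 0.16 (Dlx4), -1.28 to 0.27 (Dlx6) and -0.88 to 0.78 (Vax2) between IFNg_EZH2i and EZH2i. For the interaction they ranged from -0.33 to 1.15 (Dlx2), -1.29 to 0.76 (Dlx4), -0.69 to 1.30 (Dlx6) and -1.09 to 0.13 (Emx1). Ratios of group means from TPM differed from those of CPM by less than the spread of the replicates for the 7 tested members. The cause of these differences was not tested.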
